A study of Mus musculus with 12 samples.

Results

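A set of 10 genes that direct transcription in meiotic and post-meiotic male germ cells were followed across mouse testis libraries: Crem, Fhl5, Rfx2, Rfx4, Tbpl1, Taf7l, Mybl1, Sox30, Gtf2a1l and Brdt. They were picked by symbol in the gene expression table, by a rule that uses no measured value, although earlier results of these data were known when the set was drawn up, and all 10 were found among its 20718 genes. The study asked what lowering or raising a testis long non-coding RNA, lncRNA5251, does in the testis of the treated males. RNA was taken from the testes of wild-type mice (strain given in the labels as IRC) in 4 groups of 3 libraries, 12 in all. F0_3NC received a lentivirus with a negative-control shRNA in the LV3 backbone, and F0_5251KD received LV3 viruses with shRNAs against lncRNA5251. F0_5NC received the empty LV5 virus, and F0_5251OV received LV5 carrying lncRNA5251. All the males were injected in the testis at 4 weeks of age, kept for 5 weeks, mated at 9 weeks for 4 days and kept 4 more days, so a lentivirus injection is common to every group, controls included. Each control shares its backbone with 1 treated group only, so backbone, insert and any batch that followed them cannot be told apart between F0_3NC and F0_5NC. Neither the labels nor the methods tie replicate libraries to individual mice. The p-values therefore cover the spread among the sequenced libraries, which may be technical.

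Spermatids build a sperm cell with a programme of genes that is switched on in steps. MYBL1 (A-MYB) starts the pachytene programme in spermatocytes, SOX30 and RFX2 act as germ cells leave meiosis and build the flagellum, and CREM, helped by its coactivator FHL5 (ACT), drives genes of the round spermatid such as protamines and transition proteins. Male germ cells also carry their own versions of general transcription machinery: TBPL1 (TRF2) is a relative of the TATA-binding protein, TAF7L is a version of the TFIID subunit TAF7, and GTF2A1L (ALF) is a version of the large TFIIA subunit. BRDT is the testis member of the BET family, which reads acetylated histones.

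Each library held 15431383 to 16355720 estimated counts, a 1.06-fold range. All 10 regulators were well counted, from 517 estimated counts for Taf7l in its lowest library to 6370 for Tbpl1 in its highest, and all 10 passed the filter on low counts. The libraries were testis by their markers: no gene of the spermatogonium, spermatocyte, spermatid, Sertoli or Leydig lists was at 0 in any library. The 11 elongated spermatid markers summed to 18710 to 24600 counts per 1000000 (CPM), the 10 spermatocyte markers to 1051 to 1442, and the 10 Sertoli cell markers to 596.6 to 882.8. Epididymal markers, of which 3 of 5 were in the table, ranged from 0.4471 to 120.5 CPM and were highest in F0_5NC replicates 3 and 2. In F0_3NC and F0_5251KD they did not exceed 7.333 CPM. Their part in the results below was not tested. In whole testis RNA, fewer cells of a type and less RNA per cell cannot be told apart.

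The regulators lie on 8 chromosomes of GRCm38.p6, here given from the RefSeq annotation. Crem spans positions 3266354 to 3337773 of chromosome 18 on the minus strand, Fhl5 25199907 to 25242852 of chromosome 4 (minus), and Mybl1 9667407 to 9700439 of chromosome 1 (minus). Rfx2 spans 56775897 to 56831008 of chromosome 17 (minus) and Gtf2a1l 88665493 to 88715157 of the same chromosome (plus). Tbpl1 spans 22703877 to 22732666 (minus) and Rfx4 84756036 to 84906538 (plus) of chromosome 10. Taf7l spans 134460116 to 134476505 of chromosome X (minus), Sox30 45979069 to 46017992 of chromosome 11 (plus), and Brdt 107331116 to 107387061 of chromosome 5 (plus). By the GENCODE annotation Tbpl1 overlaps the protein-coding gene Slc2a12 on the opposite strand and Mir7663 on the same strand. Crem, Fhl5, Rfx4 and Brdt overlap Gm6225, Gm11906, Gm24226 and Gm8152. These are overlaps of whole gene spans, introns included, and whether exons overlap was not checked. No strand step is named for the counting, so reads of any exon stretch that 2 genes share could not be told apart.

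All 10 regulators were abundant transcripts of the adult testis. Levels are given in RPKM, read counts scaled to transcript length and to the reads mapped in the library, which allows comparison between genes. By the mean of 12 libraries the order from high to low was Fhl5, Gtf2a1l, Brdt, Tbpl1, Rfx2, Sox30, Crem, Rfx4, Taf7l and Mybl1. Fhl5 had more RPKM than 97.6% of the genes in the table and Mybl1, the lowest, more than 77.4%. The ranges over libraries of neighbours in this order overlapped everywhere except between Crem and Rfx4, which differed 2.33-fold in their means, and between Rfx4 and Taf7l, which differed 1.55-fold. Within single libraries the order was nevertheless steady: Fhl5 exceeded Gtf2a1l in 12 of 12 libraries, Gtf2a1l exceeded Brdt in 11, Rfx2 exceeded Sox30 in 11 and Sox30 exceeded Crem in 10, and each other neighbour held its place in all 12.

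**Figure D1:**
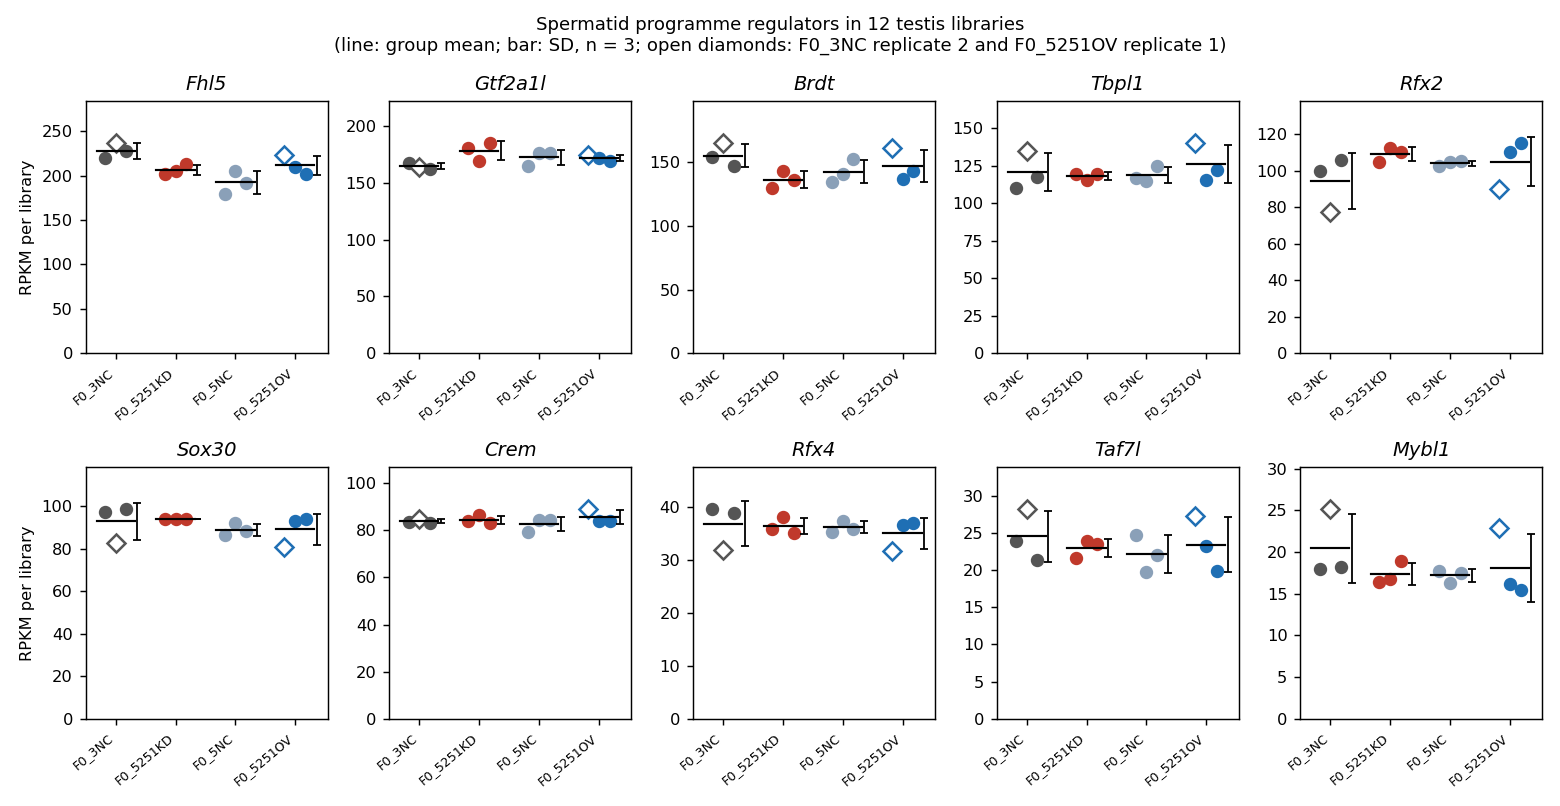
RPKM of each regulator (vertical axis, from 0) in each library, by group; circles and diamonds are libraries, horizontal lines group means and bars SDs (n = 3). The group means of each gene lie close together, and the open diamonds, F0_3NC replicate 2 and F0_5251OV replicate 1, sit above the other 10 libraries for Mybl1, Tbpl1, Taf7l and Brdt and below them for Rfx2, Rfx4 and Sox30.

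Crem and its coactivator Fhl5 come first. Crem measured 83.5, 84.8 and 83.2 RPKM in F0_3NC, 84.1, 86.4 and 83.1 with knockdown (F0_5251KD), 79.3, 84.3 and 84.2 in F0_5NC, and 89.2, 83.8 and 83.9 with overexpression (F0_5251OV). It was the steadiest of the 10, with a coefficient of variation of 2.71% over all libraries and overlapping groups throughout. Fhl5 measured 219, 237 and 228 RPKM in F0_3NC, 201, 205 and 213 with knockdown (F0_5251KD), 180, 205 and 192 in F0_5NC, and 223, 210 and 202 with overexpression (F0_5251OV). Every F0_3NC library was above every library of F0_5251KD and of F0_5NC, while F0_5251OV overlapped F0_5NC.

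The RFX factors bind X-box elements, and RFX2 is needed for flagellum formation in spermatids. Rfx2 measured 100.01, 77.2 and 106.1 RPKM in F0_3NC, 105, 113 and 110.1 with knockdown (F0_5251KD), 102, 105 and 105 in F0_5NC, and 89.9, 110.1 and 115 with overexpression (F0_5251OV). Rfx4, best known from the brain and also transcribed in testis, measured 39.7, 31.9 and 38.9 RPKM in F0_3NC, 35.9, 38.1 and 35.1 with knockdown (F0_5251KD), 35.4, 37.4 and 35.9 in F0_5NC, and 31.7, 36.6 and 36.9 with overexpression (F0_5251OV). For both genes 1 library of F0_3NC and 1 of F0_5251OV were the lowest of all, and the groups overlapped.

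Sox30, a factor of the step from meiosis to the round spermatid, measured 97.2, 82.7 and 98.9 RPKM in F0_3NC, 93.9, 94.1 and 94.0 with knockdown (F0_5251KD), 86.7, 92.1 and 88.3 in F0_5NC, and 80.9, 93.0 and 93.8 with overexpression (F0_5251OV). The F0_5251KD libraries lay within an SD of 0.146 RPKM, and the same libraries as for Rfx2 and Rfx4 were lowest. Mybl1, the upstream meiotic regulator, measured 17.97, 25.2 and 18.2 RPKM in F0_3NC, 16.4, 16.8 and 18.9 with knockdown (F0_5251KD), 17.8, 16.3 and 17.5 in F0_5NC, and 22.9, 16.1 and 15.5 with overexpression (F0_5251OV). It varied most of the 10, with a coefficient of variation of 15.8% and a 1.63-fold range, and both of its high libraries were among the low ones of Sox30.

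The germ cell versions of general factors and the chromatin reader completed the set. Tbpl1 measured 110, 135 and 118 RPKM in F0_3NC, 119, 115 and 119.7 with knockdown (F0_5251KD), 117, 115 and 125 in F0_5NC, and 140.0, 115 and 122 with overexpression (F0_5251OV). Taf7l measured 23.9, 28.2 and 21.4 RPKM in F0_3NC, 21.6, 23.9 and 23.5 with knockdown (F0_5251KD), 24.8, 19.7 and 22.1 in F0_5NC, and 27.3, 23.2 and 19.8 with overexpression (F0_5251OV). For both, the second library of F0_3NC and the first of F0_5251OV were the highest of the 12, and no group stood clear of its control.

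Gtf2a1l measured 168, 164 and 162 RPKM in F0_3NC, 180.6, 169 and 185 with knockdown (F0_5251KD), 165, 176 and 176 in F0_5NC, and 175, 172 and 169 with overexpression (F0_5251OV). Brdt measured 154, 165 and 147 RPKM in F0_3NC, 129.5, 143 and 136 with knockdown (F0_5251KD), 135, 141 and 152 in F0_5NC, and 161, 137 and 143 with overexpression (F0_5251OV). In each gene the F0_5251KD libraries lay wholly to one side of F0_3NC, above it for Gtf2a1l and below it for Brdt, by small margins.

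Set against their widely expressed relatives, most of the regulators were the more abundant partner. Crem exceeded Creb1 23.9-fold (range over libraries 19.3 to 28.5) and Atf1 2.01-fold (1.71 to 2.24). Gtf2a1l exceeded Gtf2a1, which encodes the general TFIIA subunit, 20.4-fold (up to 26.5-fold in single libraries). The margin was smaller at the other general factors: Taf7l exceeded Taf7 3.34-fold (2.88 to 3.62) and Tbpl1 exceeded Tbp 1.91-fold (1.58 to 2.04). Rfx2 was 4.14-fold (3.72 to 4.55) and Rfx4 1.45-fold (1.27 to 1.76) above Rfx1, the most abundant of the other RFX genes listed.

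Among the BET genes Brdt was 1.28-fold (1.14 to 1.53) above Brd2 and 3.35-fold above Brd3. Mybl1 was 4.32-fold (3.17 to 7.3) above Mybl2, the relative that acts in dividing cells, and Myb was nearly absent, at a mean of 0.0917 RPKM. Sox30 was 4.74-fold (3.99 to 5.61) above Sox5. One relative went the other way: Fhl4, another testis LIM-only gene, averaged 1200 RPKM (SD 74.7, n = 12) and exceeded Fhl5 in all 12 libraries, at a ratio of Fhl5 to Fhl4 of 0.174. Fhl5 was 45.3-fold above Fhl1, 36.2-fold above Fhl2 and 144-fold above Fhl3. These ratios hold over all 12 libraries for each pair named, and they rest on the gene models behind the deposited RPKM.

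**Figure D2:**
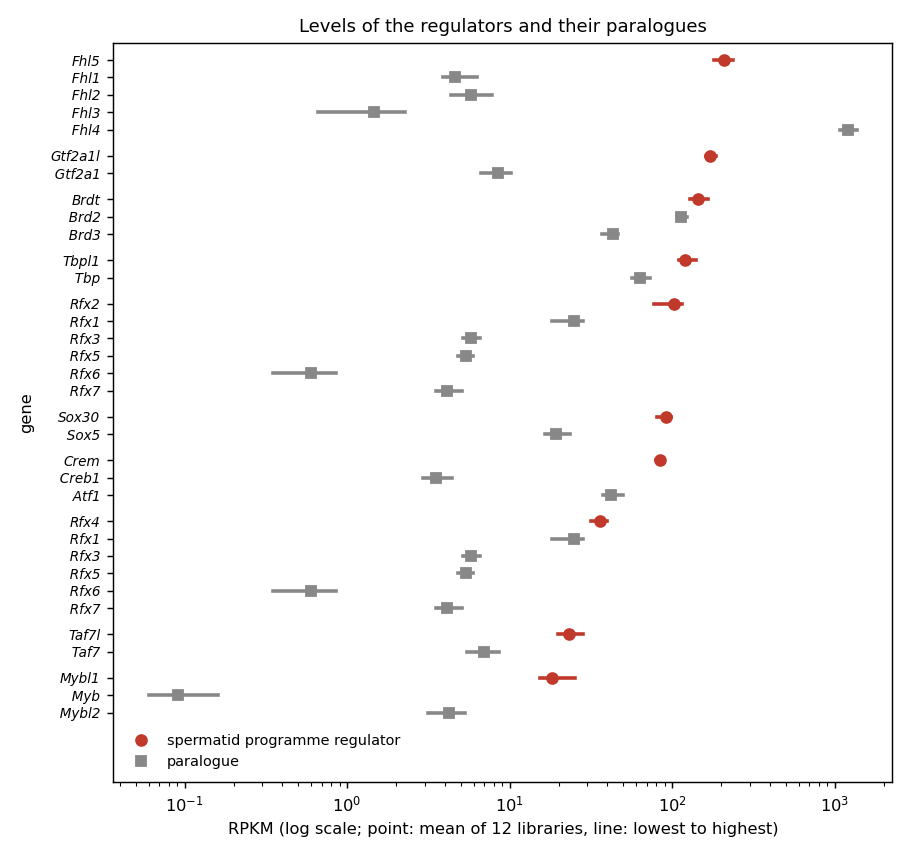
Mean RPKM over 12 libraries on a log axis (points) with the lowest and highest library (lines) for each regulator (red circles) and its paralogues (grey squares). Every paralogue plotted except Fhl4, at 1200 RPKM, lies to the left of its regulator.

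No regulator passed the test between knockdown and its control. In F0_5251KD against F0_3NC, edgeR's quasi-likelihood test over 16296 genes called 0 of the 10 at an adjusted p under 0.05, and it called 0.0245% of all genes tested. DESeq2 and limma also called 0 of the 10. At an unadjusted p under 0.05 the count was again 0, against 4.74% of all genes. Fitted log2 fold changes ran from -0.25 to 0.20 with a median of -0.05 (-0.004 over all genes), and the widest 95% interval reached 0.56, a 1.47-fold difference, so changes larger than that lie outside the interval of every regulator. The groups did not overlap in CPM for 3 genes, a pattern seen in 11.8% of all genes: Fhl5 was lower (208.6 ± 7.79 against 231.4 ± 6.18 CPM, SD, n = 3; log2 -0.15, SE 0.08, adjusted p = 0.897), Brdt was lower (328.5 ± 20.4 against 363.9 ± 15.7 CPM; log2 -0.15, SE 0.082, adjusted p = 0.897) and Gtf2a1l was higher (264.8 ± 11.1 against 246.5 ± 5.57 CPM; log2 0.10, SE 0.072, adjusted p = 0.897). None of the 3 passed the test.

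The largest fitted values of this comparison rested on 1 control library. For Mybl1 the fit gave -0.25 on the log2 scale (SE 0.14, adjusted p = 0.897), and for Rfx2 it gave 0.20 (SE 0.13, adjusted p = 0.897). Without F0_3NC replicate 2 they were -0.08 and 0.06. Crem and Sox30 lay at the same level in both groups to within the error: 195.6 ± 6.14 against 196.2 ± 2.11 CPM for Crem (95% interval of the log2 fold change -0.15 to 0.15) and 264.4 ± 4.25 against 265.1 ± 27.9 CPM for Sox30 (-0.20 to 0.20).

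Overexpression likewise gave no call. In F0_5251OV against F0_5NC 0 of 10 regulators passed the edgeR test, DESeq2 or limma, where edgeR called 0.0% of all genes. One, Fhl5, had an unadjusted p under 0.05, as did 8.77% of all genes: its mean was 217.7 ± 5.36 against 193.0 ± 22.0 CPM (log2 0.17, SE 0.08, adjusted p = 0.569). Its CPM groups overlapped, and without F0_5NC replicate 1, its lowest library, the log2 fold change was 0.09. Of the 10 genes 9 had a positive and 1 a negative fitted value, from -0.01 for Rfx4 to 0.17 for Fhl5, with a median of 0.08 (-0.002 over all genes) and no interval beyond 0.44, a 1.36-fold difference. No regulator had groups that did not overlap, a pattern found in 13.9% of all genes. In CPM, F0_5NC replicate 1 was the lowest of the 12 libraries for Crem, Fhl5, Tbpl1, Sox30, Gtf2a1l and Brdt. CPM depend on a scaling factor per library (TMM), which was 1.078 in this library and 0.97 to 1.02 in the others. A higher factor lowers every CPM of a library. In RPKM, made without that factor, F0_5NC replicate 1 was the lowest only for Crem and Fhl5. Without this library the fitted values were 0.02 for Crem, 0.01 for Rfx2, 0.01 for Brdt and 0.07 for Tbpl1. Those of Sox30, Gtf2a1l and Rfx4 were -0.01, -0.04 and -0.08, and those of Taf7l and Mybl1 were 0.12 and 0.11. The same library had the highest Sertoli cell sum (882.8 CPM, against 596.6 to 684.6 in the other 11). It also had the lowest round spermatid sum (1882 CPM), and the part of either in these values was not tested.

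Fitted values of similar size were found between the controls. In F0_3NC against F0_5NC 0 of 10 regulators passed the edgeR test, which called 0.331% of all genes, and DESeq2 and limma called 0 as well. Fhl5 had the lowest adjusted p of any regulator in any comparison: 231.4 ± 6.18 CPM in F0_3NC and 193.0 ± 22.0 in F0_5NC, a log2 difference of 0.26 (SE 0.08, 95% interval 0.09 to 0.43, unadjusted p = 0.00599, adjusted p = 0.281). Over 16 alternative analyses its adjusted p ranged from 0.142 with DESeq2 to 0.652 without F0_5NC replicate 1, which also brought the log2 difference to 0.17. It was the only regulator with an unadjusted p under 0.05, against 11.9% of all genes. Mybl1 had a log2 difference of 0.28 (SE 0.14, adjusted p = 0.45), at 99.36 ± 18.9 against 81.69 ± 2.97 CPM, and 0.12 without F0_3NC replicate 2. These were the 2 genes whose control groups did not overlap, as was so for 17.0% of all genes. The widest interval reached 0.59, or 1.51-fold.

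The knockdown effect minus the overexpression effect was tested as an interaction in the same fit. None of the 10 passed (edgeR called 0.0% of all genes, and DESeq2 and limma called 0 of the 10). Fhl5 alone had an unadjusted p under 0.05, as had 11.3% of all genes, with a difference of log2 fold changes of -0.32 (SE 0.11, 95% interval -0.57 to -0.08, adjusted p = 0.403). The largest was that of Mybl1, -0.38 (SE 0.20, adjusted p = 0.47), with an interval from -0.82 to 0.06 that spans up to a 1.76-fold difference.

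**Figure D3:**
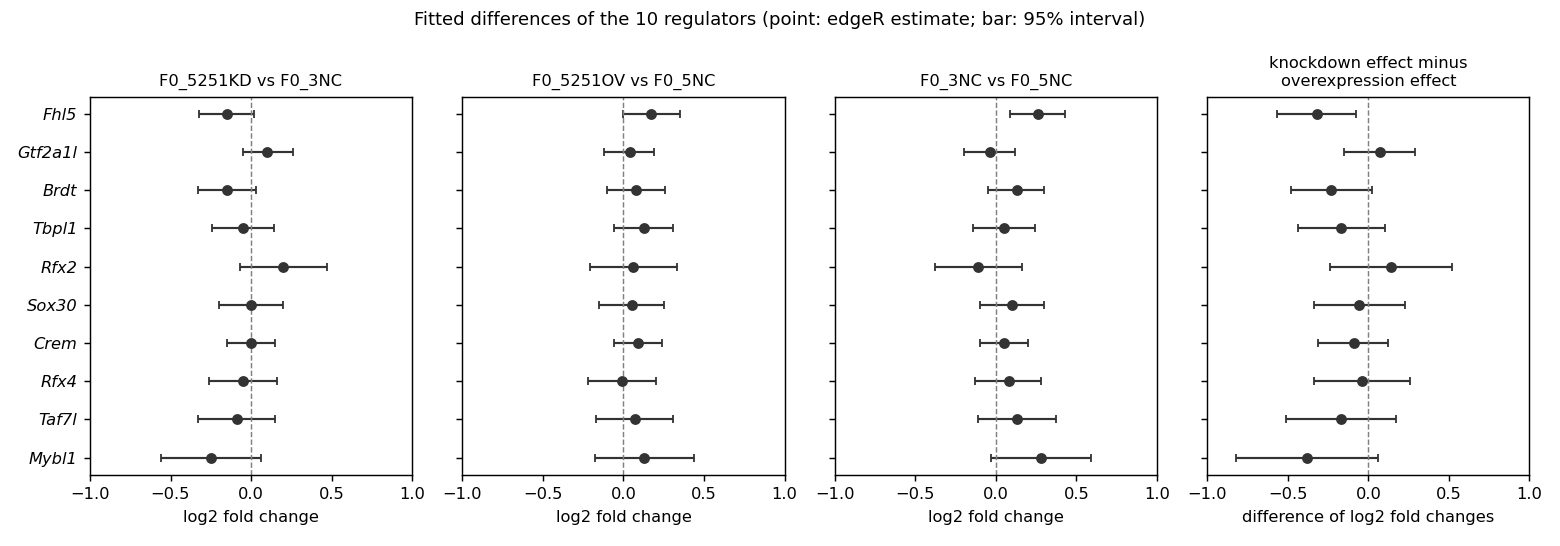
Fitted log2 fold changes (points) with 95% intervals (bars) from edgeR for the 10 regulators in 3 comparisons and for the difference between the effects of knockdown and overexpression. All points lie between -0.38 and 0.28, and between the controls and for the difference of effects only the interval of Fhl5 is clear of 0.

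Genes that work with or under these regulators were examined in 6 lists, 88 genes in the table of which 86 were tested. None was called by edgeR in any of the 4 comparisons. At an unadjusted p under 0.05 there were 2 in F0_5251KD against F0_3NC, 6 in F0_5251OV against F0_5NC, 9 between the controls and 9 for the difference of effects, out of 86. Over all genes the shares were 4.74%, 8.77%, 11.9% and 11.3%, so no comparison had more of these genes than the background. The 12 CREM-dependent spermatid genes had a median log2 fold change of 0.02 with knockdown and 0.06 with overexpression, and none of them had an unadjusted p under 0.05 in either. In that list the largest knockdown values were those of Odf1, an outer dense fibre protein (0.12, SE 0.14, adjusted p = 0.909), and Akap4, of the fibrous sheath (-0.12, SE 0.10, adjusted p = 0.897). With overexpression they were those of Pgk2, the testis phosphoglycerate kinase (0.21, SE 0.10, adjusted p = 0.58), and Tnp2, a transition protein (-0.08, SE 0.18, adjusted p = 0.904). The levels of Tnp2 were 3250 ± 672 and 3450 ± 353 CPM.

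The 13 MYBL1-dependent pachytene genes had a negative fitted value in 12 with knockdown (median -0.08) and a positive one in 10 with overexpression (median 0.05). Over all genes the medians were -0.004 and -0.002. Between the controls 9 of the 13 were positive (median 0.08). The spermatocyte markers had 8 of 10 negative with knockdown (median -0.15) and 8 of 10 positive with overexpression (median 0.18). All 10 Sertoli cell markers were negative with overexpression (median -0.21), and none of these markers was called. The controls differed likewise: in F0_3NC against F0_5NC 9 of 10 spermatocyte markers were positive (median 0.20). All 10 Sertoli cell markers were negative there (median -0.18). Within F0_5NC the Sertoli cell sum was 882.8 CPM in replicate 1 and 645.5 and 632.5 in the others. Within F0_3NC the spermatocyte sum was 1442 CPM in replicate 2 and 1168 and 1154 in the others. Within F0_5251OV it was 1410 CPM in replicate 1 and 1110 and 1093 in the others. The part of these cell types, or of these single libraries, in the values of the list was not tested. Asz1 (-0.19, SE 0.11, adjusted p = 0.897) and Pld6 (0.15, SE 0.15, adjusted p = 0.898), both of the piRNA pathway, bounded the knockdown values, and Tdrd5 (0.24, SE 0.093, adjusted p = 0.552) and Tdrd9 (-0.10, SE 0.092, adjusted p = 0.737) those of overexpression. Between the controls Tdrd12 was highest (0.24, SE 0.092, adjusted p = 0.366) and Pld6 lowest (-0.17, SE 0.15, adjusted p = 0.622).

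Of the ciliary and flagellar list, which also holds the linker histone gene Hist1h1t and Fank1, 19 genes were tested, with medians of -0.04 in knockdown and 0.05 in overexpression. Hist1h1t gave the extreme values (log2 1.32 with overexpression, SE 0.59, adjusted p = 0.56) but was scarcely counted, at 0.959 against 0.378 CPM. Tekt1, a tektin of the axoneme, was the highest with knockdown (0.10, SE 0.11, adjusted p = 0.899). Spag16, of the central pair, was the lowest with overexpression (-0.13, SE 0.15, adjusted p = 0.803). For the 18 TFIID and TFIIA subunits the medians were -0.08 and 0.07, and Gtf2a1 stood highest in overexpression (51.0 ± 4.58 against 40.8 ± 2.64 CPM, log2 0.32, SE 0.12, adjusted p = 0.552). Taf4b, a germ cell TFIID subunit, was lowest in knockdown (-0.21, SE 0.10, adjusted p = 0.897) and Taf10 highest (0.26, SE 0.20, adjusted p = 0.897). F0_3NC replicate 2 and F0_5251OV replicate 1 were both above all other libraries in Gtf2a1 and both below them in Taf10. The part of those libraries in these values was not tested.

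Of the 9 other spermatid regulators, 8 had a positive fitted value with overexpression (median 0.12) and 3 with knockdown (median -0.01). Gmcl1 was lowest in knockdown (177 ± 9.11 against 204 ± 24.6 CPM, log2 -0.20, SE 0.095, adjusted p = 0.897) and highest in overexpression (0.16, SE 0.095, adjusted p = 0.621). Zmynd15, a repressor of the haploid phase, was highest in knockdown (0.20, SE 0.13, adjusted p = 0.897), and Foxj1, the ciliogenesis factor, lowest in overexpression (-0.15, SE 0.14, adjusted p = 0.752). In CPM, F0_3NC replicate 2 and F0_5251OV replicate 1 were both above all other libraries in Gmcl1. Both were below all others in Zmynd15 and Foxj1. How far the values of these genes rest on those libraries was not tested. Among 19 paralogues tested, Fhl2 gave the largest knockdown value (7.86 ± 0.404 against 5.86 ± 0.299 CPM, log2 0.42, SE 0.14, adjusted p = 0.897). Its control level was in turn below that of F0_5NC (log2 -0.43, SE 0.14, adjusted p = 0.316), where Fhl3 had the opposite sign (0.84, SE 0.27, adjusted p = 0.295).

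Larger differences lay between libraries of the same group. F0_3NC replicate 2 and F0_5251OV replicate 1 both exceeded the other 10 libraries in Mybl1 (25.2 and 22.9 RPKM against 15.5 to 18.9), Tbpl1 (135 and 140.0 against 110 to 125), Taf7l (28.2 and 27.3 against 19.7 to 24.8) and Brdt (165 and 161 against 129.5 to 154). Both were below the other 10 in Rfx2 (77.2 and 89.9 against 100.01 to 115), Rfx4 (31.9 and 31.7 against 35.1 to 39.7) and Sox30 (82.7 and 80.9 against 86.7 to 98.9). Crem, Fhl5 and Gtf2a1l did not set these libraries apart. The ratio of Mybl1 to Rfx2 in RPKM, which needs no scaling between libraries, was 0.327 and 0.254 in them and 0.134 to 0.180 in the other 10.

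**Figure D4:**
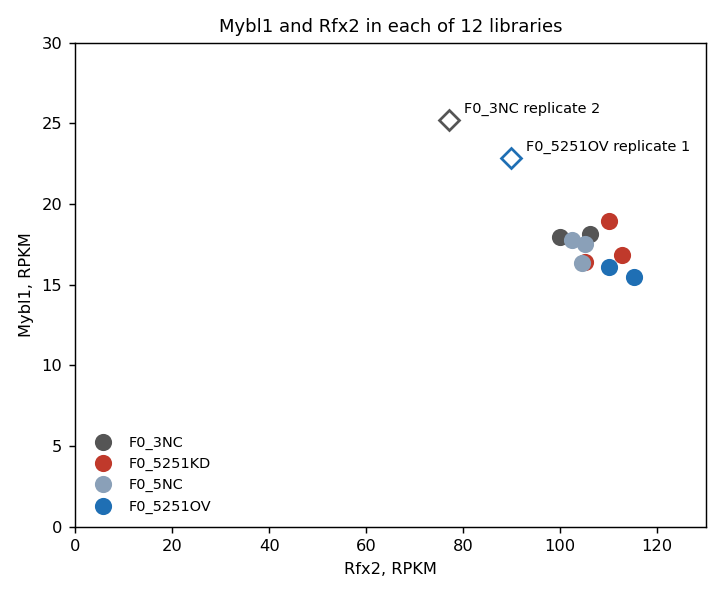
RPKM of Mybl1 (vertical) against RPKM of Rfx2 (horizontal), 1 point per library, coloured by group. F0_3NC replicate 2 and F0_5251OV replicate 1 (open diamonds) lie above and to the left of the other 10 libraries, which fall between 15.5 and 18.9 RPKM of Mybl1 and between 100.01 and 115 RPKM of Rfx2.

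On the CPM scale 4 regulators were above and 2 below in both libraries, 6 of 10, since Sox30 no longer stood clear. Of all 16296 genes tested 14.1% were above and 14.3% below, 28.4% in either direction. The libraries were picked because the regulators stood apart in them, so these shares are a description. Some markers moved with the regulators: the summed level of the 10 spermatocyte markers was 1442 CPM in F0_3NC replicate 2 and 1410 in F0_5251OV replicate 1, against 1051 to 1168 in the other 10, with 6 of the 10 genes above. The 11 elongated spermatid markers summed to 18710 CPM in the first and 19900 in the second, against 18780 to 24600 in the other 10, so this sum did not set both apart. Nor did the round spermatid sum (2226 and 2253 CPM, against 1882 to 2350). The Sertoli cell sum was lower in both than in the other 10 (598.1 and 596.6 CPM, against 609.8 to 882.8). So was the endothelial sum (34.48 and 33.6 CPM, against 35.96 to 46.45). The part of cell composition in these values was not tested. As the 2 libraries fall in 1 control group and 1 treated group, every comparison holds at least 1 of them.

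Across all 12 libraries, after each group's mean was taken out, pairs of regulators were compared by correlation, given here as a description with no test. Rfx2, Rfx4 and Sox30 varied together, with a Pearson r of 0.92 to 0.97 over their pairs (Spearman rho 0.91 to 0.99), and still 0.78 to 0.93 over the 10 libraries without F0_3NC replicate 2 and F0_5251OV replicate 1. Crem, Fhl5 and Gtf2a1l had an r of 0.69 to 0.85 (rho 0.36 to 0.64, and r 0.71 to 0.86 without the same libraries). Mybl1, Tbpl1 and Brdt had an r of 0.64 to 0.81, which fell to 0.31 to 0.55 without them. These are not closed sets: Crem and Brdt had an r of 0.75, and over the 10 libraries Fhl5 with Sox30 (0.95), Crem with Sox30 (0.93), Crem with Rfx4 (0.93) and Rfx2 with Brdt (0.81) were as close as pairs within them. The opposed course of Mybl1 and Rfx2 rested on those 2 libraries: r was -0.81 with them and 0.39 without. F0_5NC replicate 1 is held in both sets of values. It deviated from its group mean by -0.14 log2 units in Crem, -0.18 in Fhl5 and -0.15 in Gtf2a1l. Outside F0_5NC the deviations of these genes lay between -0.06 and 0.06. In Rfx4, Brdt, Sox30 and Rfx2 that library deviated by -0.13, -0.13, -0.12 and -0.1. How far the correlations rest on it was not tested. All these points share the same 12 libraries and their scaling.

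**Figure D5:**
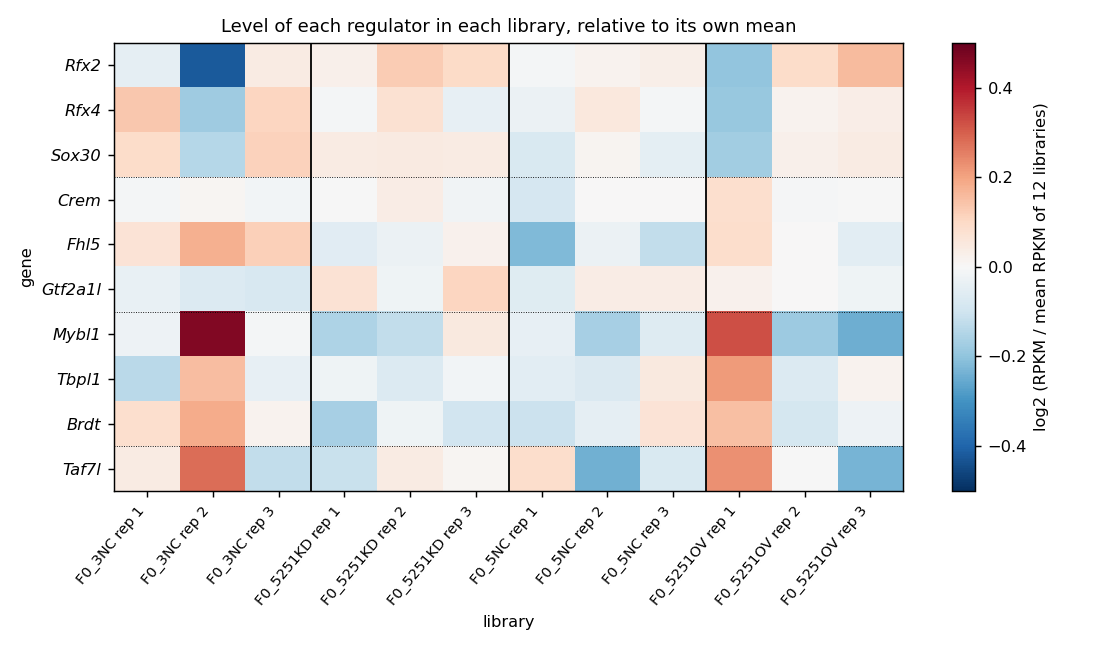
Colour gives the log2 ratio of each regulator's RPKM in a library (columns, by group) to its own mean over the 12 libraries; dotted lines only order the genes for reading. F0_3NC replicate 2 and F0_5251OV replicate 1 are blue for Rfx2, Rfx4 and Sox30 and red for Mybl1, Tbpl1, Brdt and Taf7l.

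For each regulator the gene with the closest course over the 12 libraries was sought among 11703 genes of at least 5 CPM on average, by Pearson r after removal of group means. Each gene named is thus the highest of 11703 values of r, given as a description with no test. Rfx2 lay nearest to Prm3, a protamine-locus gene (r = 0.996, rho 0.99), Rfx4 to Lmntd2 (0.991) and Sox30 to Atg9a, an autophagy scramblase (0.999). These 3 regulators had 797, 603 and 837 genes with an r over 0.9. How many such genes a typical gene of the table has was not counted. Mybl1 lay nearest to Ssr1, a subunit of the translocon-associated complex (0.996, with 426 genes over 0.9), and Brdt to Adad1, a testis RNA-binding protein (0.991, with 166 genes). The others had fewer such genes, from 25 to 71: Tbpl1 with Catsperb, a subunit of the sperm calcium channel (0.959), Taf7l with Nptn (0.975, 28 genes), Crem with Fam243 (0.98), Fhl5 with Spata19, a sperm mitochondrial protein (0.962), and Gtf2a1l with Trim36 (0.972).

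Promoters are shown for Rfx2, Rfx4 and Sox30, which were low in F0_3NC replicate 2 and F0_5251OV replicate 1, and for Taf7l and Brdt, which were high in them. Outside those libraries Brdt was not opposed to the first 3 (r of 0.81, 0.79 and 0.76 over the other 10). RefSeq windows on GRCm38.p6 run from 250 bases before to 50 bases after the start site, 300 in all, and were found for 8 of the 10 regulators (10 windows). Capitals mark motifs matched on either strand: the CRE half-site TGACG bound by CREM, the X-box half-site GTTGCC bound by RFX factors, the MYB sites TAACNG and CAACNG, and the TATA box TATAAA. The full CRE, TGACGTCA, overlaps 2 half-sites and was counted separately. The windows lie at chr17:56830959-56831258 for Rfx2 (minus strand), chr10:84755798-84756097 and chr10:84837898-84838197 for the 2 starts of Rfx4 (plus), chr11:45980060-45980359 for Sox30 (plus), chrX:134476441-134476740 for Taf7l (minus) and chr5:107330944-107331243 for Brdt (plus), each written 5′ to 3′ along the gene.
Rfx2: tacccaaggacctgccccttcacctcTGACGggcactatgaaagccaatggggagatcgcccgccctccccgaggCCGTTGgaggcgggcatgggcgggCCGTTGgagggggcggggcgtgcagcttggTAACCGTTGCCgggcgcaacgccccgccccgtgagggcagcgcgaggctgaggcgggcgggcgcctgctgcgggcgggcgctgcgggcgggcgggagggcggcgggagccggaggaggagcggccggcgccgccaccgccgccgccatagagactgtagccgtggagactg
Rfx4, first start: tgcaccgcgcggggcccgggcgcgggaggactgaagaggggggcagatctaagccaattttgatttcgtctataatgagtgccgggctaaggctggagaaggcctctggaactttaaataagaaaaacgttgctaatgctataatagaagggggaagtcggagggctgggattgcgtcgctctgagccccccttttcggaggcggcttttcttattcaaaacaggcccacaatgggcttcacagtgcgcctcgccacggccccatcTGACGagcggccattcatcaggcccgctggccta
Rfx4, other start: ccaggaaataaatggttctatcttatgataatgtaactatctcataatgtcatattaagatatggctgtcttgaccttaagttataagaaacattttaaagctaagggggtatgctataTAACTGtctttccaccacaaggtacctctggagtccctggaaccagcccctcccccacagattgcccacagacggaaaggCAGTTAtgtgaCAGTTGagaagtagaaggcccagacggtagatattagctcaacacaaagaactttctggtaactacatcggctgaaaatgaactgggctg
Sox30: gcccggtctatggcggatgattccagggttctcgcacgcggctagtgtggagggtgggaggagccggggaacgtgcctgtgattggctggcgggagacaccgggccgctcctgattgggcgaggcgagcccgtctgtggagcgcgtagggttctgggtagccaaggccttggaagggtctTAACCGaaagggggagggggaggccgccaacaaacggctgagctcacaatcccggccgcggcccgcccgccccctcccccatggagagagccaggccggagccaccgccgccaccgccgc
Taf7l: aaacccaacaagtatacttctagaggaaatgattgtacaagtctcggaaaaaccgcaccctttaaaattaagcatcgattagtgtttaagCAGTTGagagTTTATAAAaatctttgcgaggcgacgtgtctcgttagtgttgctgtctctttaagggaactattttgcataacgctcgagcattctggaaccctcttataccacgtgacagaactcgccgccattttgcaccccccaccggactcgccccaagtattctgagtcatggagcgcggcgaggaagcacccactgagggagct
Brdt: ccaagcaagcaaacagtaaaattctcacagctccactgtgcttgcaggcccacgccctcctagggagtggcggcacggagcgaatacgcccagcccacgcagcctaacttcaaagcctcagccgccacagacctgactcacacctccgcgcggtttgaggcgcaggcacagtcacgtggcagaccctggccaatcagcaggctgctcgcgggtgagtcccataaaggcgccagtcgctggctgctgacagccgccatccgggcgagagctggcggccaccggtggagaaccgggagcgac

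The window of Rfx2 held the most motifs. Its X-box half-site lay 116 bases before the start and overlapped a MYB site, and it had 4 MYB matches and 1 CRE half-site, while 75.7% of its bases were G or C. Rfx4 had 1 CRE half-site at its first start and 3 MYB matches at the other, and Sox30 had 1 MYB match. Taf7l had the only TATA box letters, 148 and 150 bases before the start and overlapping each other, with 1 MYB match. The window of Brdt held none of the motifs. Of the 10 windows of the 8 regulators, 2 held a CRE half-site (20.8% of 32851 windows of this length) and 2 an X-box half-site (12.5%). A MYB site was in 6 (49.7%) and a TATA box in 1 (13.6%), and the full CRE was in none (1.79%). Among the genes shown, a MYB match was present in Rfx2, Rfx4, Sox30 and Taf7l and not in Brdt. Tbpl1, also high in F0_3NC replicate 2 and F0_5251OV replicate 1 but not shown, had a window with none of the motifs. A match is a run of letters and does not show binding.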

How the data were processed

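RNA from mouse testes was enriched with oligo(dT), primed with random hexamers and sequenced on an Illumina HiSeq. Per the methods of the study, the authors mapped reads to reference genes with SOAPaligner, allowing few mismatches. The deposited table holds estimated counts, of which 12.0% are not whole to within 1e-06 (no source used here names the counting tool), and RPKM values computed by the authors from transcript length and mapped reads. The authors' own fold changes, p-values and group averages, and 18 columns of samples outside this series, were not used.

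Estimated counts were rounded and fitted in edgeR 4.0.16 (R 4.3.3): TMM scaling, filterByExpr, quasi-likelihood test, 12 libraries in 1 fit with no covariates, Benjamini-Hochberg adjustment over 16296 genes, threshold 0.05. CPM are counts per 1000000 after TMM. Depth was 15431383 to 16355720 counts per library. The fit was tested on simulated data. Alternatives were DESeq2 1.42.0, limma 3.58.1 on log2(RPKM + 1) or log2(RPKM + 0.1), other scalings and filters, 2 groups only, the replicate number as a block, and libraries left out. The pair of libraries left out together was chosen after seeing the data.

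The 10 regulators and the gene lists were chosen with earlier results of these data known. All regulators are named. In each list the highest and lowest fitted log2 fold change per comparison could be named, and for likeness the gene with the highest r. RefSeq windows were searched for fixed letters. Values measured here came from the counts and RPKM, and the RPKM alternative had been planned under the name FPKM. Values of 1 paralogue are not reported here.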

Additional observations from a re-analysis of the deposited data

How the results depend on the processing

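Under every alternative tried the number of regulators called was 0 of 10 in all 4 comparisons. The number of list genes called was 0 under each as well, where the main fit tested 86 of them. The lowest adjusted p of any regulator was 0.142 (Fhl5 between controls, DESeq2). DESeq2 called more genes overall than edgeR: 20 against 4 with knockdown, 30 against 0 with overexpression, 138 against 54 between controls and 35 against 0 for the difference of effects. Replicate numbers did not pair the libraries (r of same-numbered deviations -0.202 to 0.134). With the replicate block 0 regulators were called, and 2, 0, 50 and 0 genes overall. Of 300 log2 fold changes with 1 library left out 25 changed sign, and of 390 under other alternatives 29 did, none of them for Fhl5 or Brdt. The cause was not tested.

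With knockdown, Crem (-0.0043) became 0.0029 with DESeq2 or its size factors, 0.0012 with upper-quartile scaling, 0.0034 with no filter, and 0.01 with the 1 CPM filter or limma. Sox30 (-0.0035) became 0.0040, 0.0039, 0.0029, 0.0041 and 0.01 in the same order, and 0.02 with limma. limma gave Gtf2a1l with overexpression -0.0043, and for the difference of effects Rfx4 0.03 or 0.04 and Sox30 0.02. Without both F0_3NC replicate 2 and F0_5251OV replicate 1, Tbpl1 became 0.04 and Taf7l 0.002 with knockdown, Rfx4 0.04, Taf7l -0.02 and Mybl1 -0.07 with overexpression, Rfx2 0.01 and Tbpl1 -0.03 between controls, and Rfx2 -0.08 and Taf7l 0.02 for the difference.

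Leaving out 1 library at a time gave, with knockdown, Crem -0.03 to 0.01, Rfx4 -0.15 to 0.0001, Sox30 -0.09 to 0.05 and Tbpl1 -0.11 to 0.02. With overexpression it gave Gtf2a1l -0.04 to 0.08, Mybl1 -0.06 to 0.22, Rfx2 -0.03 to 0.17, Rfx4 -0.08 to 0.05, Sox30 -0.01 to 0.13 and Taf7l -0.01 to 0.16. Between controls it gave Crem -0.02 to 0.09, Gtf2a1l -0.11 to 0.0039, Rfx2 -0.21 to 0.03 and Tbpl1 -0.01 to 0.12, and for the difference of effects Rfx2 -0.0032 to 0.24, Rfx4 -0.14 to 0.03 and Sox30 -0.15 to 0.01. With 3 libraries a group, the 95% intervals given for each regulator set what these data could resolve.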

Other observations

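Some other germ cell genes stood outside the remaining 10 libraries in both F0_3NC replicate 2 and F0_5251OV replicate 1, given as a description with no test. Of all 16296 genes tested 14.1% were above and 14.3% below in both, 28.4% in either direction, and the libraries were picked for how far the regulators stood apart in them. Of the spermatocyte markers, 6 of 10 were above: Sycp1, Sycp2 and Sycp3 of the synaptonemal complex, Hormad1, Meiob and Mlh3, and none was below. Of the round spermatid markers 4 of 11 were above, namely Dpy19l2 and the acrosomal genes Spaca1, Zpbp and Zpbp2, while Acrbp was below. Of the elongated spermatid markers Prm3, Tnp2 and Gapdhs were below and Akap4 was above. The CREM-dependent list divided likewise, with Pgk2 and Akap4 above and Tnp2, Ace and Gapdhs below. Among the ciliary and flagellar genes 5 of 19 were above (Ift88, Dync2h1, Bbs4, Spag16 and Spag17) and 0 below. That is 26.3% above and 0.0% below, against 14.1% and 14.3% of all genes. Of the 10 Sertoli cell markers 5 were below, among them Rhox5 and Dhh, and none of the 8 Leydig cell markers stood outside in both.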
